A study of Mus musculus with 11 samples.

Results

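The transcripts of 8 genes of nuclear RNA bodies were followed in mouse embryonic stem cells (ESCs): the long noncoding RNAs (lncRNAs) Neat1, Malat1, Tug1 and Miat, and the mRNAs of the RNA-binding proteins Sfpq, Nono, Pspc1 and Matr3. The genes were taken by symbol from the 23284 genes listed for each of 11 RNA-seq libraries, and all 8 symbols were found. The libraries form 5 groups. Polyadenylated RNA of wild-type (WT) ESCs was sequenced in 3 libraries (WT polyA). Total RNA depleted of ribosomal RNA was sequenced in 2 libraries each of WT ESCs and of ESCs in which Tet1, Tet2 and Tet3 are all knocked out (TKO), either untreated (WT 0 h, TKO 0 h) or treated for 4 h with α-amanitin at 10 µg/ml, which blocks RNA polymerase II (WT 4 h, TKO 4 h). All cells were grown on gelatin in serum with leukemia inhibitory factor, and the number of TKO clones was not given in the sources used here. The study describes the α-amanitin experiment as biological duplicates, and for WT polyA the labels do not say whether replicates were separate cultures, so p-values of the polyA comparison may measure only technical spread.

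Paraspeckles are nuclear bodies built on the lncRNA Neat1. Only the long form of Neat1 can build them. They also contain the DBHS proteins, a family of related RNA-binding proteins made of Sfpq, Nono and Pspc1, which act as dimers. Malat1, whose gene neighbours that of Neat1, is an abundant RNA of nuclear speckles, the bodies that store splicing factors. Tug1 and Miat are lncRNAs retained largely in the nucleus, and Matr3 is an RNA-binding protein of the nuclear matrix that associates with Sfpq and Nono. Malat1 and long Neat1 end in an unusual way: RNase P, the enzyme that trims transfer RNAs, cuts at a tRNA-like fold, and the new end is held in a triple helix of U-rich and A-rich tracts in place of a poly(A) tail. Short Neat1 is cleaved and polyadenylated as mRNAs are.

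The 3′ ends of the 4 lncRNAs are shown first, because one comparison is between polyA-selected and ribodepleted RNA. All lie on the minus strand and are given 5′ to 3′ along the transcript, in mouse genome build NCBIM37 (mm9, the build of the deposited values) with GENCODE vM1 transcripts. In the first pair, capitals mark 2 runs of bases that Malat1 and long Neat1 share, a run of 16 bases and, after it, an A-rich run of 12 bases.
Malat1, chr19:5795921-5796083: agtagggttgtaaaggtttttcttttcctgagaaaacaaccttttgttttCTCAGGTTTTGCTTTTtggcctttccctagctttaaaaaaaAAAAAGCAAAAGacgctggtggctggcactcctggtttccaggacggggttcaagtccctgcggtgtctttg
Neat1, long transcript, chr19:5824647-5824816: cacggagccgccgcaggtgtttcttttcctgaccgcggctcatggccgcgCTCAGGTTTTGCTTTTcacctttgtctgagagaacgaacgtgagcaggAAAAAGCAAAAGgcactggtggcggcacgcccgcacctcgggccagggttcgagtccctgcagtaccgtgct

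The runs are 25 bases apart in Malat1 and 32 bases apart in Neat1. The annotated end of long Neat1 falls on base 11 of the 12-base run. The annotated end of Malat1 lies 291 bases beyond that run, so the annotation carries Malat1 past the tRNA-like stretch. The 60 bases after the second run aligned between the genes with 40 identical bases over 61 columns (65.6%). Among 85706 distinct annotated transcript 3′ ends, the 16-base run occurred within the last 500 bases of 4, which belong to 2 genes, Malat1 and Neat1. The 12-base run occurred there in 20 ends (0.0233%). Each run was picked as the longest shared by the searched stretches of Malat1 and long Neat1. Its presence in both genes was thus fixed by that choice.

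The other annotated ends hold a poly(A) signal, the hexamer read by the cleavage and polyadenylation machinery. It is in capitals in the last 60 bases of each transcript.
Malat1, annotated end, chr19:5795690-5795749: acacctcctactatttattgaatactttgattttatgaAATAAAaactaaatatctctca
Neat1, short transcript, chr19:5842307-5842366: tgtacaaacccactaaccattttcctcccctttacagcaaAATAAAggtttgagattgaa
Tug1, chr11:3539797-3539856: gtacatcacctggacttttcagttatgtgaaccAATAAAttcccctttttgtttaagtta
Miat, chr5:112642248-112642307: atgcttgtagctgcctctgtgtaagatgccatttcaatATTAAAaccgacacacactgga

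The searched hexamers were AATAAA and ATTAAA, on the transcript strand only. AATAAA stood in the last 60 bases of Malat1, short Neat1 and Tug1 and of 27.7% of all annotated ends, ATTAAA in Miat and 9.2%, and at least 1 of them in 35.1%.

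The genes lie at chr19:5824708-5845478 (Neat1), chr19:5795690-5802671 (Malat1), chr11:3539797-3548815 (Tug1) and chr5:112642248-112657968 (Miat) on the minus strand. Sfpq lies at chr4:126698568-126714257 and Nono at chrX:98624657-98643930 on the plus strand, Pspc1 at chr14:57341278-57397153 on the minus strand and Matr3 at chr18:35721812-35751699 on the plus strand. The deposited unit is TPM, which is relative within a library and corrected for length. The steps between TPM values gave the feature length behind each value. It was 3177 bases for Neat1, close to the 3170 bases spanned by the short transcript and far from the 20771 of the long one, so the Neat1 values describe the shared 5′ part, and long and short Neat1 cannot be told apart in them. It was 6982 bases for Malat1, the whole gene. An antisense gene of 988 bases, Gm20417, lies within Malat1, and same-strand noncoding genes overlap Sfpq and Pspc1. The strand setting of the counting was not given, so these 3 values may include or lack reads of their neighbours.

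Recovered reads per library numbered 25507874 to 29781366 in the ribodepleted groups and 72639837 to 82129168 in WT polyA. Behind single values stood 1402 to 27031 reads for Neat1, 43020 to 171287 for Malat1 and 44 to 98 for Miat. Tet1 and Tet2 were lower in TKO than in WT at 0 h (scaled TPM 30.4 ± 0.16 against 135 ± 13.9, and 7.53 ± 0.40 against 52.4 ± 5.29, SD, n = 2 each), while Tet3 was at 1.47 in both. The ESC markers Pou5f1, Sox2, Nanog, Esrrb, Zfp42 and Klf4 were present in every library (summed scaled TPM 1444 to 2802) and their sum was lower in TKO (1444 to 1554) than in the ribodepleted WT libraries (2198 to 2343). Nanog did not share that direction (43.2 in TKO against 38.5 in WT at 0 h, limma adjusted p = 0.13). The 5 fibroblast markers summed to 11.6 to 14.3 in TKO and 8.45 to 11.8 in ribodepleted WT libraries, but did not move together. At 0 h Col1a2 was higher in TKO (4.76 against 1.55, limma adjusted p = 3.08e-05). Postn, which was under the filter and not tested, was lower (0.27 against 1.02). Col1a1 (3.42 against 2.72), Col3a1 (2.04 in both) and Thy1 (1.29 against 1.36) did not pass. The 3 endoderm markers summed to 1.18 to 1.69 in TKO and 2.59 to 3.15 in ribodepleted WT libraries. The 2 neuron markers found summed to 134 to 151 in TKO, 179 to 199 in ribodepleted WT and 110 to 112 in WT polyA libraries. Nearly all of this was Tubb3, with Rbfox3 below 0.31. Markers and members were both measured in bulk, where fewer cells of a type and less RNA per cell cannot be told apart, and the part of the marker differences in the results below was not tested.

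Levels are given as scaled TPM, the deposited TPM after division by 1 size factor per library (0.88 to 1.07). In WT ESCs at 0 h Malat1 was the most abundant of the 8 (mean scaled TPM 1055), with 116 genes of the transcriptome above it. Matr3 (338) and Nono (337) followed and overlapped between libraries. Sfpq stood at 229, Pspc1 at 85.3, Neat1 at 67.5 and Tug1 at 52.9, each apart from its neighbours in the 2 libraries. Miat was the lowest of the 8 at 0.76. In WT polyA the order differed. Nono (376) and Sfpq (375) led and overlapped, Matr3 (229) and Neat1 (199) overlapped next, and Malat1 came after these 4 at 165, with 950 genes above it.

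**Figure D1:**
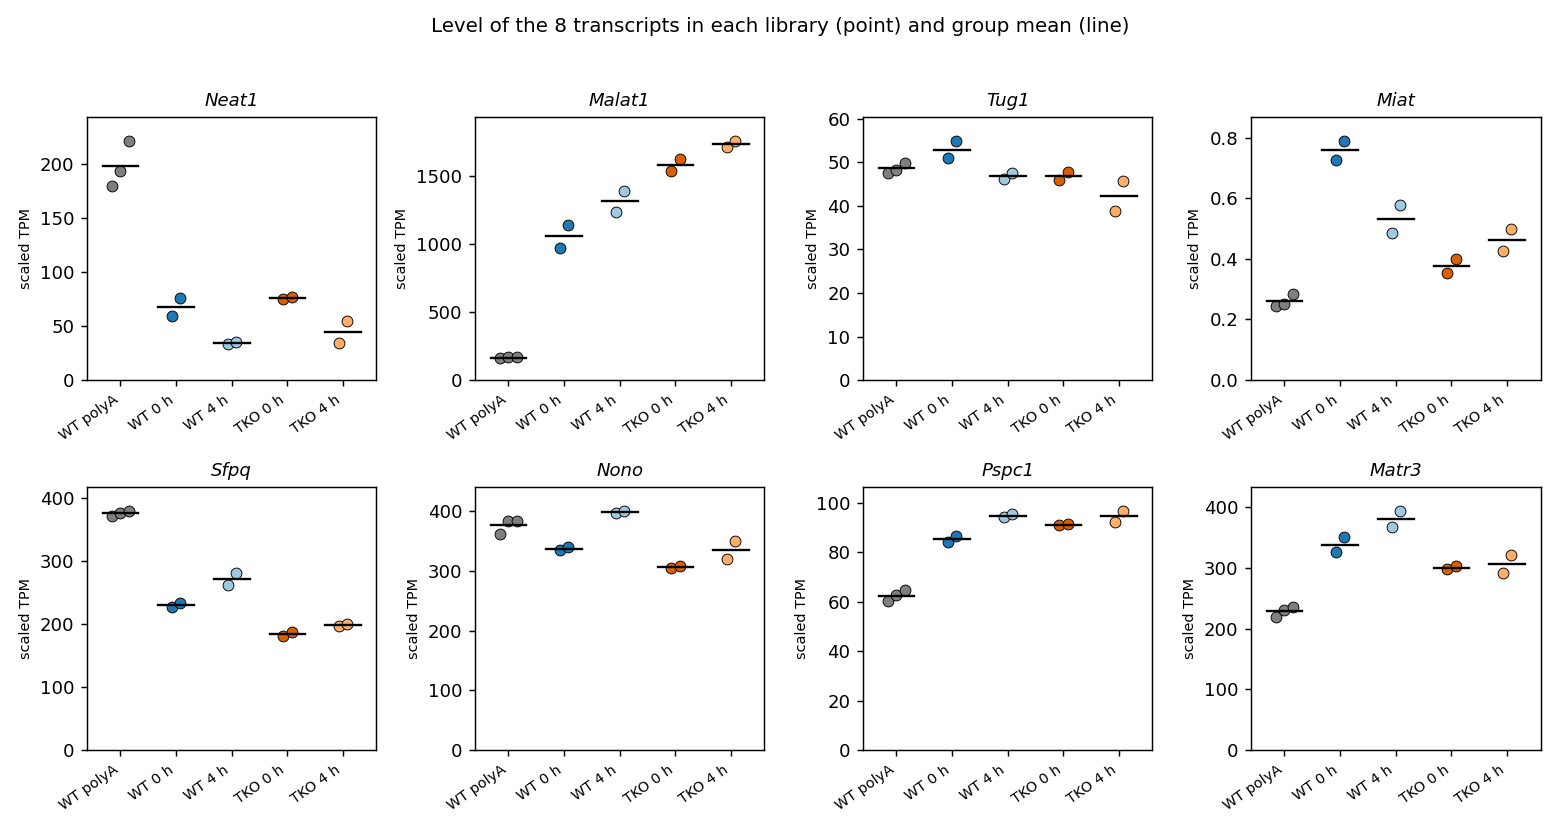
Scaled TPM (linear axis from 0, a separate scale for each gene) of the 8 transcripts in each of the 11 libraries; points are libraries and lines are group means. Malat1 is lowest in the 3 polyA libraries (163 to 166) and highest in the 4 TKO libraries (1536 to 1755), whereas Neat1 is highest in the polyA libraries and lowest at 4 h.

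The polyA and ribodepleted WT libraries differed most in Malat1 and Neat1, and in opposite directions. Neat1 was measured over the 5′ part that its long and short forms share. Its scaled TPM was 194, 222 and 180 in the 3 polyA libraries and 75.9 and 59.0 in the ribodepleted libraries. The groups did not overlap, and the mean was 2.94-fold higher in polyA (log2 change 1.55 ± 0.11 SE, adjusted p = 2.59e-06). Malat1 had 163, 166 and 166 in polyA against 1139 and 972 in ribodepleted RNA. Its mean was 6.39-fold lower in polyA (log2 change -2.66 ± 0.06, adjusted p = 4.45e-09). Log2 changes are of scaled TPM + 1, fitted with limma across all genes, with Benjamini-Hochberg adjustment. Of the 8 transcripts, 3 were higher and 4 lower at an adjusted p under 0.05, where 42.8% of all tested genes were higher and 38.3% lower, so passing the test was the usual outcome in this comparison.

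The 3 DBHS mRNAs did not move together. Sfpq was 372, 376 and 379 in polyA against 226 and 233 in ribodepleted RNA, a log2 change of 0.71 ± 0.03 (adjusted p = 2.81e-07). Nono, which forms heterodimers with it, was 384, 362 and 383 against 335 and 340 (0.16 ± 0.04, adjusted p = 0.0062). Pspc1 was lower in polyA, at 62.5, 60.1 and 64.6 against 84.2 and 86.4 (-0.45 ± 0.04, adjusted p = 1.34e-05). Matr3 was lower as well, at 231, 220 and 236 against 351 and 326 (-0.56 ± 0.05, adjusted p = 6.96e-06). None of these 4 overlapped between the groups, but how often this holds over all genes was not counted.

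The remaining lncRNAs were lower in polyA. Tug1 was 47.5, 50.0 and 48.3 against 54.9 and 51.0, a log2 change of -0.12 ± 0.05 (adjusted p = 0.035). That call was lost in 5 of 9 alternative settings and when any of 3 single libraries was left out (adjusted p 0.053 to 0.35 where lost). Miat was 0.25, 0.28 and 0.25 against 0.73 and 0.79, which is 2.92-fold lower in polyA. Its mean was under the filter on low values, so it was not part of the test, and without a filter its adjusted p was 0.00012.

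**Figure D2:**
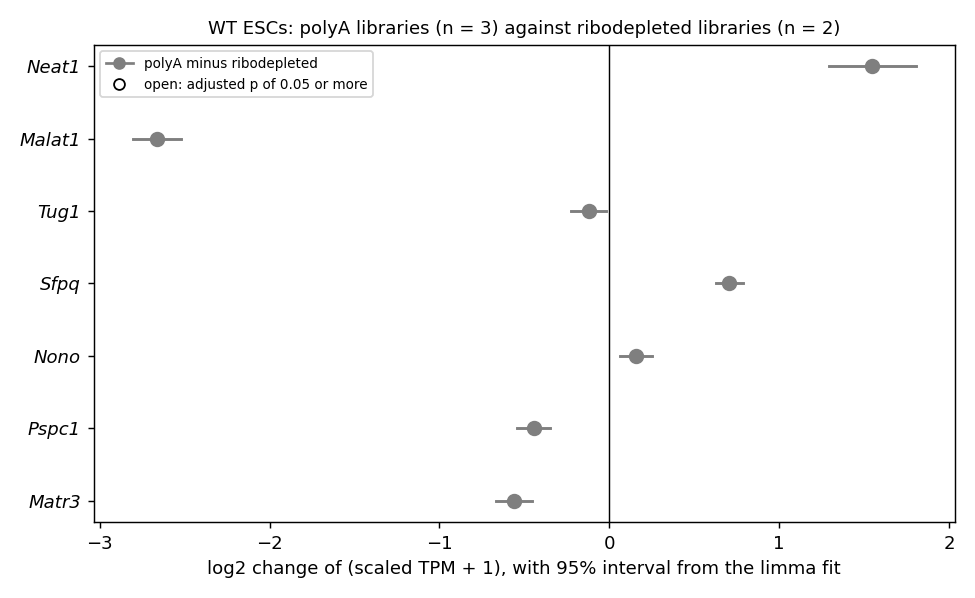
Log2 change of (scaled TPM + 1) between WT polyA (n = 3) and WT 0 h ribodepleted libraries (n = 2) for the 7 tested transcripts, with 95% intervals from the limma fit. Malat1 lies at -2.66 and Neat1 at 1.55, outside the range of the 5 others (-0.56 to 0.71).

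Further genes of the same bodies, other nuclear lncRNAs and RNase P proteins were also split. Of 25 further paraspeckle proteins, 12 were higher in polyA, 8 lower and 5 did not pass, with a median log2 change of 0.09 beside 0.03 over all tested genes. Among those higher in polyA were the RNA-binding proteins Taf15 (scaled TPM 312 against 49.9, log2 change 2.62) and Hnrnph3 (80.3 against 29.3, 1.42). Of 14 further nuclear lncRNAs, 11 were listed and 8 tested. Here 6 were lower in polyA and 1 was higher, with a median of -0.77. Nespas (4.02 against 39.5, -3.01) and Kcnq1ot1 (0.27 against 8.94, -2.97), antisense RNAs of imprinted loci, fell the furthest, followed by Mirg (16.0 against 37.4, -1.17). Of 6 nuclear speckle proteins, 4 were higher (Srrm1 2.07, Srrm2 0.99 and Pnn 0.96) and 1 was lower. Of 10 proteins of RNase P, 4 were higher and 4 lower, with Pop1 (-0.80), Pop4 (-0.58) and Pop7 (-0.47) the largest changes and a median of 0.00068. The RNA subunits of RNase P and of the related RNase MRP, Rpph1 and Rmrp, together made up 12.2% to 14.7% of all TPM in the ribodepleted libraries and 0.001% in WT polyA. RNA selection and depth changed together between these libraries. The polyA libraries were also not part of the α-amanitin experiment, so cultures and sequencing may differ too. None of these can be told apart.

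Between genotypes, Malat1 was higher and Sfpq lower in TKO than in WT ESCs at both times. The p-values of these comparisons measure spread between libraries of a group. Loss of Tet and other differences between the cell lines therefore cannot be told apart. In all, 1 of the 7 tested transcripts was higher and 3 were lower in TKO at each time. Of all tested genes, 27.8% were higher and 28.3% lower at 0 h, and 29.0% were higher and 30.4% lower at 4 h. At 0 h, Malat1 was 1536 and 1621 in TKO against 1139 and 972 in WT, a log2 change of 0.58 ± 0.09 (limma adjusted p = 0.00058). At 4 h it was 1755 and 1713 against 1387 and 1236 (0.41 ± 0.09, adjusted p = 0.0038). Every TKO library was above every ribodepleted WT library. Sfpq, which pairs with the other DBHS proteins and is required for paraspeckles, was 187 and 181 in TKO at 0 h against 226 and 233 in WT (-0.32 ± 0.05, adjusted p = 0.00062). At 4 h it was 196 and 201 against 262 and 280 (-0.45 ± 0.05, adjusted p = 8.27e-05), again with no overlap. Both calls at both times held in each of the 10 alternative settings and with each single library left out.

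Nono and Matr3 were lower in TKO by smaller amounts. Nono was 305 and 309 at 0 h against 335 and 340 in WT (-0.14 ± 0.05, limma adjusted p = 0.049), and 320 and 350 at 4 h against 401 and 397 (-0.25 ± 0.05, adjusted p = 0.0029). Matr3 was 303 and 298 at 0 h against 351 and 326 (-0.17 ± 0.06, adjusted p = 0.046), and 321 and 292 at 4 h against 394 and 368 (-0.31 ± 0.06, adjusted p = 0.0025). The groups did not overlap, but the calls at 0 h stood just inside the threshold. Each gene passed in 6 of 10 alternative settings at 0 h and in 8 of 10 at 4 h. With the deposited TPM unscaled or quantile-normalised, neither gene passed at either time, and Nono at 0 h changed sign under quantile normalisation (0.01). With any 1 of the 4 libraries at 0 h left out Nono did not pass, and Matr3 passed only without WT 0 h replicate 2 (adjusted p 0.044 to 0.24).

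The levels of Neat1, Tug1 and Pspc1 did not pass the test between genotypes. Neat1 was 77.0 and 75.6 in TKO at 0 h, around the higher of the WT libraries (75.9 and 59.0), with a log2 change of 0.19 and a 95% interval from -0.23 to 0.61. At 4 h it was 55.0 and 34.7 in TKO against 35.7 and 33.4 in WT (0.33, interval -0.09 to 0.75), and it was 0.66 without TKO 4 h replicate 2 (adjusted p = 0.0033) and 0.0086 without TKO 4 h replicate 1 (adjusted p = 0.96). With one library left out the difference at 0 h ranged from 0.0073 to 0.36, with no pass, and voom, limma's method for read counts, run on the recovered reads, called Neat1 higher at 4 h (adjusted p = 0.042). Tug1 was 47.8 and 45.8 in TKO against 54.9 and 51.0 at 0 h (-0.17, interval -0.35 to 0.00066) and 45.8 and 38.8 against 46.2 and 47.7 at 4 h (-0.15, interval -0.33 to 0.02). The latter was -0.27 without TKO 4 h replicate 1 (adjusted p = 0.0069) and -0.035 without TKO 4 h replicate 2 (adjusted p = 0.63). Tug1 passed with voom at both times (adjusted p = 0.025 and 0.048), and at 0 h also with only the groups compared in the fit (adjusted p = 0.024). Pspc1 was 91.4 and 90.8 against 84.2 and 86.4 at 0 h (0.09, interval -0.0038 to 0.19) and 96.6 and 92.3 against 94.2 and 95.3 at 4 h (-0.0045, interval -0.10 to 0.09). With unscaled or quantile-normalised TPM the difference of Pspc1 at 0 h was 0.19 or 0.17 and passed (adjusted p = 0.019 and 0.013), and at 4 h it was 0.15 unscaled and passed as well (adjusted p = 0.043).

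Among the 4 lncRNAs of the 8 transcripts, Miat had the largest proportional difference at 0 h, at 0.40 and 0.35 in TKO against 0.73 and 0.79 in WT, or 2.01-fold lower. It was not in the main test, and without a filter its adjusted p was 0.0036. At 4 h it was 0.50 and 0.43 in TKO against 0.49 and 0.58 in WT, where the groups overlapped. 

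**Figure D3:**
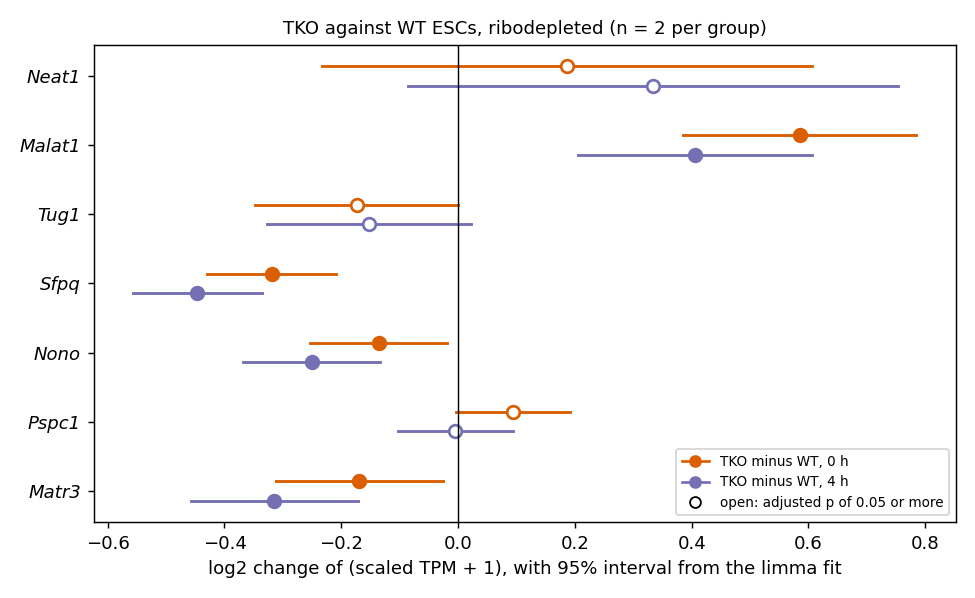
Log2 change of (scaled TPM + 1) between TKO and WT ribodepleted libraries (n = 2 per group) at 0 h and at 4 h of α-amanitin, with 95% intervals from the limma fit; filled points have an adjusted p under 0.05. Malat1 is above 0 and Sfpq, Nono and Matr3 are below 0 at both times.

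Other genes of these bodies, further nuclear lncRNAs and RNase P proteins are given by counts. Of 24 tested further paraspeckle proteins, 15 were lower and 0 higher in TKO at 0 h, with a median log2 change of -0.19 beside -0.02 over all tested genes. The furthest were Hnrnpr (-0.41), the cold-induced Rbm3 (-0.37) and Akap8l (-0.34). At 4 h again 15 were lower and 0 higher, with a median of -0.27 beside -0.0057, led by Hnrnpr (-0.52), Akap8l (-0.48) and Rbm14 (-0.45), which is essential for paraspeckles. Of the 8 tested nuclear lncRNAs, 7 were lower and 0 higher at 0 h (median -0.59) and 6 lower and 1 higher at 4 h (median -0.63). Tsix, the antisense partner of Xist, was lower by -1.05 at 0 h and -1.08 at 4 h. Rian (-0.88 and -0.91) and Mirg (-0.98 and -0.90), which belong to the imprinted Dlk1-Dio3 cluster, were lower at both times. Of 6 nuclear speckle proteins, 3 were lower at 0 h and 4 at 4 h, among them Son (-0.42 and -0.49), Acin1 (-0.41 and -0.50) and Pnn (-0.34 and -0.38), and 0 were higher. Of 10 RNase P proteins, 1 was higher and 4 lower at 0 h (Rpp38 -0.47, Rpp40 -0.47 and Rpp25 -0.36), and 3 were higher and 4 lower at 4 h (Rpp40 -0.58, Rpp25 -0.52 and Pop4 0.25). The 2 genotype comparisons contrast different libraries of the same cell lines and share the same estimate of spread. With unscaled TPM the median of all genes was 0.07 at 0 h and 0.14 at 4 h, and the genes called higher and lower numbered 4160 and 2198 at 0 h in place of 3473 and 3531, and 5027 and 2074 at 4 h in place of 3619 and 3792.

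After 4 h of α-amanitin, Neat1 was lower and Malat1 higher in WT ESCs relative to the transcripts that remained. Of the 7 tested transcripts 4 were higher and 1 lower, beside 21.9% and 15.7% of all tested genes. Neat1 was 35.7 and 33.4 at 4 h against 75.9 and 59.0 at 0 h, 1.95-fold lower with no overlap (log2 change -0.94 ± 0.18, limma adjusted p = 0.0085). The fall passed in all 10 alternative settings that kept every library. Without WT 0 h replicate 1 or WT 4 h replicate 1 the adjusted p was 0.055 or 0.056. Malat1 was 1387 and 1236 against 1139 and 972 (0.32 ± 0.09, adjusted p = 0.024). Sfpq was 262 and 280 against 226 and 233 (0.24 ± 0.05, adjusted p = 0.0092), Nono 401 and 397 against 335 and 340 (0.24 ± 0.05, adjusted p = 0.010) and Pspc1 94.2 and 95.3 against 84.2 and 86.4 (0.15 ± 0.04, adjusted p = 0.027). All 3 DBHS mRNAs were thus higher at 4 h on the scaled values.

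Those 4 rises depended on the scaling. The size factors of the WT 4 h libraries were the lowest (0.88 and 0.91). With unscaled TPM the median of all genes was -0.11, and Malat1 changed by 0.16, Sfpq by 0.08, Nono by 0.08 and Pspc1 by -0.0091. None of the 4 passed then (adjusted p 0.14 to 0.92), nor under quantile normalisation (adjusted p 0.21 to 0.56). Among the 7, Malat1 alone passed without WT 0 h replicate 1 and Sfpq alone without WT 4 h replicate 1, while Neat1, Sfpq and Nono passed without WT 0 h replicate 2 and Neat1, Malat1 and Nono without WT 4 h replicate 2. Malat1 also did not pass without a filter on low values (adjusted p = 0.071), nor Pspc1 without a variance trend (adjusted p = 0.058). TPM are shares of what remains in a library, so a loss common to all transcripts cannot be seen in them.

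Matr3 (394 and 368 at 4 h against 351 and 326) and Tug1 (46.2 and 47.7 against 54.9 and 51.0) did not overlap between the times but did not pass (0.17, interval 0.03 to 0.31, limma adjusted p = 0.060, and -0.17, interval -0.34 to 0.0050, adjusted p = 0.11). Each passed in 3 of 10 alternative settings. Matr3 passed with the replicate number as a block (adjusted p = 0.027), with a mean above 5 (0.048) and with voom (0.019), and Tug1 with unscaled TPM (-0.33, adjusted p = 0.038), with voom (0.039) and with only the groups compared (0.043). Voom thus called all 7 tested transcripts, where it called 2991 genes higher and 2252 lower of the 12487 tested. Miat was 0.49 and 0.58 against 0.73 and 0.79, with an adjusted p of 0.058 without a filter. Over all genes, the call counts moved with the scaling too. Unscaled TPM gave 397 genes higher and 3143 lower in place of 2734 and 1963, and quantile normalisation gave 1502 and 1417.

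In TKO ESCs no transcript of the 8 passed the test after α-amanitin. Neat1 was 55.0 and 34.7 at 4 h against 77.0 and 75.6 at 0 h, 1.70-fold lower with no overlap (-0.79 ± 0.18, limma adjusted p = 0.10). The other 6 tested transcripts had log2 changes of -0.15 to 0.14. Malat1 was 1755 and 1713 against 1536 and 1621 (0.14, interval -0.06 to 0.34), and Miat 0.50 and 0.43 against 0.40 and 0.35. By the unadjusted limma p under 0.05 the count was 2 of 7 (Neat1 and Nono), and limma voom on recovered reads called 1, Neat1 (-0.80, adjusted p = 0.0024). Among all tested genes, 0% were called higher and 0.264% lower, although 3114 had an unadjusted p under 0.05, and voom called 234 higher and 501 lower.

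TKO 4 h replicate 1 stood apart from its replicate. On the second principal component of the 8 ribodepleted libraries (14.5% of the variance), which separated the times, it scored -2.37 and its replicate -15.0, with the WT 4 h libraries at -15.1 and -12.1 and all 0 h libraries between 7.83 and 15.6. Without it, Neat1 (-1.11, limma adjusted p = 0.0066), Tug1 (-0.27, adjusted p = 0.024) and Nono (0.19, adjusted p = 0.020) passed, and 1547 genes were higher and 1233 lower. Without replicate 2 of that group Neat1 changed by -0.46 and no transcript of the 8 passed. These fits leave 1 library in the group and assume that it varies like the others.

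The amanitin effect was not found to differ between genotypes for any of the 7 transcripts. The interaction, which is the change in TKO minus the change in WT, was 0.15 for Neat1 (interval -0.45 to 0.74), -0.18 for Malat1 (-0.46 to 0.10) and -0.13 for Sfpq (-0.28 to 0.03), with limma adjusted p-values of 0.69 to 0.96 over the 7. Of them 0 had an unadjusted p under 0.05, and voom called 0 as well. In the whole transcriptome 0% of genes were called higher and 0% lower by limma, 941 had an unadjusted p under 0.05, and voom called 0. The WT and TKO comparisons over time contrast different libraries, but share 1 estimate of spread from all 8 ribodepleted libraries. Each also shares its libraries with the comparisons between genotypes, and the WT 0 h libraries also serve in the polyA comparison.

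**Figure D4:**
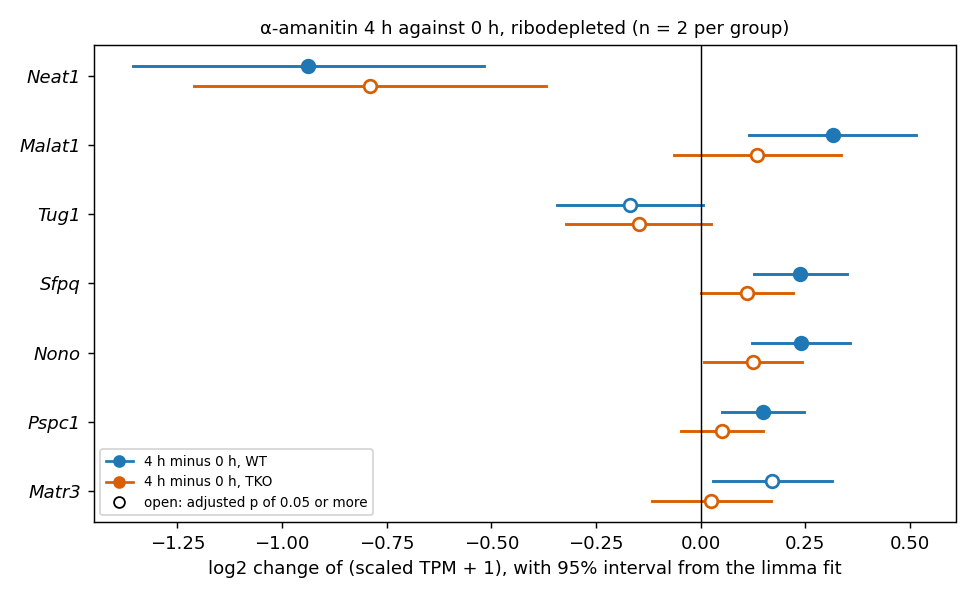
Log2 change of (scaled TPM + 1) between 4 h of α-amanitin and 0 h in WT and in TKO ESCs (n = 2 libraries per group), with 95% intervals from the limma fit; filled points have an adjusted p under 0.05. Neat1 lies at -0.94 in WT and -0.79 in TKO, and the intervals of WT and TKO overlap for all 7 transcripts.

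The short-lived mRNAs fixed as a check of the treatment, Fos, Jun, Myc, Egr1, Ier2 and Klf10, were lower in 6 of 6 in WT (median log2 change -0.52 beside 0.03 over all tested genes), led by Egr1 (-0.77), Myc (-0.64) and Ier2 (-0.58). In scaled TPM, Egr1, Myc and Ier2 stood at 2.08, 22.0 and 79.6 at 4 h against 4.30, 34.9 and 120 at 0 h. How completely transcription was blocked was not tested. In TKO 0 of the 6 passed, with a median of -0.36, Jun at -0.55 (adjusted p = 0.055) and Myc at -0.37 (adjusted p = 0.066). The log2 change of Neat1 was further from 0 than the median of that list in both genotypes, although in TKO it did not pass the test. Of 24 tested further paraspeckle proteins, 9 were higher and 2 lower in WT (median 0.09), with Hnrnpa1 (-0.58), Rbmx (-0.35) and Dazap1 (0.30) changing most, and 0 passed in TKO (median -0.00013). Hnrnpa1 and Rbmx have near-identical copies in the genome, so their values are uncertain. Of 8 tested nuclear lncRNAs, 0 were higher and 3 lower in WT (Nespas -0.84, Kcnq1ot1 -0.55 and Mirg -0.44), with 0 in TKO. Of the nuclear speckle proteins 0 of 6 passed in either genotype. Of 10 RNase P proteins 1 was higher and 3 lower in WT, among them Rpp38 (-0.65) and Pop7 (-0.60), and 0 passed in TKO.

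Ratios within a library do not depend on the scaling between libraries. Neat1 per Malat1 was 1.20 ± 0.13 in WT polyA (SD, n = 3), 0.064 ± 0.0042 in WT 0 h, 0.026 ± 0.00090 in WT 4 h, 0.048 ± 0.0025 in TKO 0 h and 0.026 ± 0.0078 in TKO 4 h (n = 2 each). Neat1 thus exceeded Malat1 in polyA RNA and was a small share of it in ribodepleted RNA. In both genotypes the ratio at 4 h lay below that at 0 h in every library, and TKO 0 h (0.047 and 0.050) lay below WT 0 h (0.061 and 0.067). Within the DBHS family, Sfpq per Nono was 0.998 ± 0.037 in WT polyA, 0.68 ± 0.0070 in WT 0 h, 0.68 ± 0.036 in WT 4 h, 0.60 ± 0.021 in TKO 0 h and 0.59 ± 0.029 in TKO 4 h. Pspc1 per Sfpq was 0.17 ± 0.0056, 0.37 ± 0.00078, 0.35 ± 0.014, 0.50 ± 0.0099 and 0.48 ± 0.023 in the same order. Both ratios separated TKO from WT in all ribodepleted libraries. Between the times Sfpq per Nono overlapped in both genotypes, and Pspc1 per Sfpq overlapped in TKO but not in WT. Groups of 2 libraries cannot reach p = 0.05 in an exact test of a single ratio, so the ratios are descriptions.

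**Figure D5:**
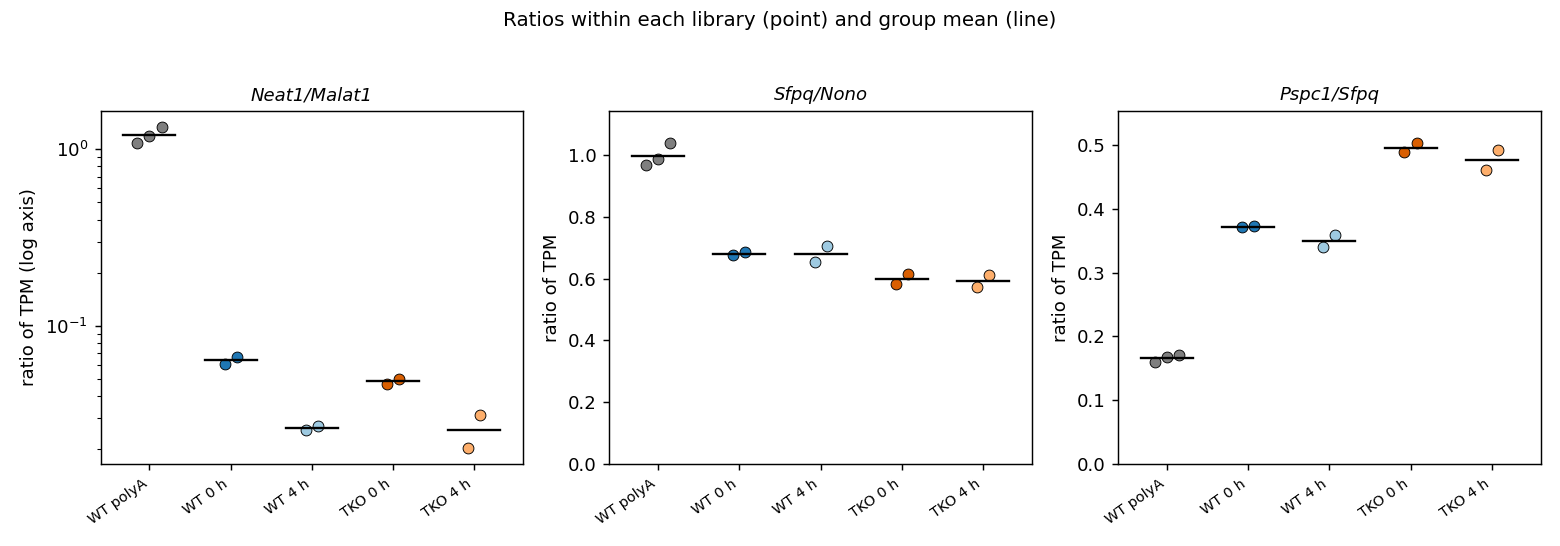
Ratios of TPM within each library for Neat1/Malat1 (log axis), Sfpq/Nono and Pspc1/Sfpq (linear axes from 0); points are libraries and lines are group means. Mean Neat1/Malat1 is 1.20 in WT polyA. In ribodepleted RNA it is 0.064 at 0 h and 0.026 at 4 h in WT, and 0.048 and 0.026 in TKO. Pspc1/Sfpq is highest in the TKO libraries (0.46 to 0.50).

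The genes whose profile over the 8 ribodepleted libraries came nearest to each member were found by the root mean square difference of centred log2(scaled TPM + 1), among 8130 genes above a mean of 10. Neat1 had few near neighbours. The microRNA gene Mir1894 (0.098) and Kis2 (0.17) were the nearest, and 1 gene was closer than 0.1. The number of genes that close depends on how much a member varies. Neat1 varied most of the 8 about its own mean (root mean square 0.49, against 0.29 for Malat1 and 0.063 for Pspc1). The nearest to Malat1 were Dbn1 (0.059) and Dynll2 (0.061), with 69 genes closer than 0.1. For Tug1 they were Rbm25 (0.019) and Hp1bp3 (0.026), for Sfpq Sulf2 (0.022) and Trmt112 (0.023), and for Nono Eef1a1 (0.012) and Ptbp1 (0.013). Pspc1 came nearest to Slc12a2 (0.021) and Erp44 (0.021), and Matr3 to Dnm1l (0.013) and Ints8 (0.028). Miat came nearest to Slc35e2 (0.036) and 6330409N04Rik (0.046). Among the members themselves, Sfpq lay 0.10 from Nono and 0.11 from Matr3, and Neat1 lay 0.65 from Sfpq and 0.59 from Malat1.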

How the data were processed

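RNA-seq of mouse ESCs was analysed in 11 libraries of 5 groups, which were taken from the sample titles. The deposited values are TPM per gene. Per the study's methods, the authors checked reads with FastQC, removed low-complexity reads with AfterQC and ribosomal and transfer RNA reads with Bowtie2, trimmed with Trimmomatic, used STAR and RefSeq genes for the alignment to mm9, counted with HTSeq and converted to TPM. Tool versions and the strand setting were not given in the sources used here. Whole reads were recovered from the TPM steps for 100% of the 19869 genes above 0 (tolerance 0.01 of a read) and gave depth, feature lengths and the voom alternative. Replicates differed by more than counting noise (chi-square per degree of freedom at least 1.56).

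A size factor per library (median of ratios) divided the TPM, and limma 3.58.1 (R 4.3.3) was run on log2(scaled TPM + 1) (eBayes with trend, two-sided, Benjamini-Hochberg over all genes with a mean scaled TPM above 1). This scale understates changes of low genes. The 8 ribodepleted libraries shared 1 fit (12487 genes), and WT polyA and WT 0 h had their own (12436 genes). A gene passed at an adjusted p under 0.05. The study's own differential analysis was made on raw counts, which were not used here. The fit was tested on simulated data with 200 changed genes. Sequences were read with Python 3 and Biopython from NCBIM37. Alternatives were unscaled TPM, quantile normalisation, pseudocounts of 0.1 and 5, no filter or a mean above 5, a replicate block, no variance trend, voom, only the groups compared, and leaving out each library.

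The members, gene lists and tests were chosen with earlier results of these data known. Named genes were the 8 members, the 2 nearest genes of each, and up to 3 genes per list by largest absolute change. Means are ± SD over libraries and log2 changes ± SE. Replicate numbers did not pair the libraries. A gene that met this rule was kept in the counts, and its own values are not reported here.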

Additional observations from a re-analysis of the deposited data

Results flagged for a closer look

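The scaled values of Miat differed between the times in opposite directions in the 2 genotypes, and neither difference passed a test. Miat was lower at 4 h than at 0 h in WT (0.49 and 0.58 against 0.73 and 0.79 scaled TPM) and higher in TKO (0.50 and 0.43 against 0.40 and 0.35), with no overlap between times in either. On the deposited TPM the times overlapped in TKO (0.52 and 0.41 against 0.43 and 0.38). With no filter the limma adjusted p was 0.058 in WT and 0.45 in TKO. The 2 changes differed by 0.29 on the log2(scaled TPM + 1) scale. Miat was under the filter of the main fit, so the difference was not tested there. Without the filter the limma interaction had an unadjusted p of 0.010 and an adjusted p of 0.70. The values rest on 44 to 98 reads per library.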

How the results depend on the processing

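The polyA comparison kept its directions for all 7 tested transcripts in every setting. Of the 8 transcripts, the number passing between TKO and WT at 0 h fell from 4 to 2 with no variance trend and to 2 to 3 with one library left out, and rose to 5 with voom or with only the groups compared. At 4 h it fell from 4 to 2 under quantile normalisation, and rose to 6 with voom and to 5 without either TKO 4 h library. For 4 h against 0 h in WT it fell from 5 to 2 with unscaled TPM, to 1 under quantile normalisation and to 1 to 3 with one library left out, and rose to 7 with voom and to 6 with a mean above 5 or with only the groups compared. In TKO it rose from 0 to 1 with voom, and was 0 to 3 with one library left out. The cause was not tested. The calls over all genes moved with the settings as well, so these counts are not a result about the 8 transcripts alone.

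Some changes turned in sign. For TKO against WT they were Nono at 0 h (0.010, quantile normalisation), and at 4 h Tug1 (0.0029, unscaled) and Pspc1 (0.15 unscaled, where it passed with an adjusted p of 0.043, 0.11 quantile-normalised and -0.037 to 0.028 with one library left out, above 0 without TKO 4 h replicate 2 or WT 4 h replicate 2). For 4 h against 0 h in WT they were Pspc1 (-0.0091, unscaled) and Matr3 (-0.015, quantile-normalised). In TKO they were Pspc1 (-0.046 unscaled, -0.0057 quantile-normalised), Matr3 (-0.072 unscaled, -0.066 quantile-normalised and -0.043 to 0.095 with one library left out, lowest without TKO 4 h replicate 1) and Malat1 (-0.016, quantile-normalised). For the interaction they were Neat1 (-0.18 to 0.47 with one library left out, below 0 without TKO 4 h replicate 1 or WT 0 h replicate 1) and Tug1 (-0.097 to 0.14, below 0 without TKO 0 h replicate 2, TKO 4 h replicate 1, WT 0 h replicate 1 or WT 4 h replicate 1).

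Over all genes, 33 were lower in TKO at 4 h in the main fit. The count was 100 unscaled, 59 quantile-normalised, 1 and 51 with pseudocounts of 0.1 and 5, 3 without a filter, 76 with a mean above 5, 0 with no variance trend and 9 with only the groups compared. The higher genes, 0 in the main fit, were 2 unscaled, 3 quantile-normalised, 2 with the pseudocount of 5, 1 without a filter, 4 with a mean above 5 and 1 with only the groups compared. With one library left out, the counts in WT ranged from 63 to 1774 higher and 304 to 1194 lower, and in TKO from 0 to 1547 higher and 0 to 1233 lower. The interaction called at most 8 genes higher and 2 lower in any setting.

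Replicate numbers are shared by the groups, but same-numbered libraries deviated together only weakly (correlations -0.04 to 0.12). With the replicate block the number passing was 6 for polyA, where Tug1 was lost, 4 and 4 between genotypes, 6 over time in WT, where Matr3 was gained, and 0 in TKO and for the interaction. Of the 12436 genes tested for polyA, 5134 were higher and 4560 lower with the block.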
